A study of Mus musculus with 8 samples.

Results

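A set of 10 genes of the p53, p21 and retinoblastoma pathways were followed in bone marrow derived macrophages (BMDMs) with and without Mkl1. They were Trp53, Mdm2, Cdkn1a, Ccng1, Cdkn1b, Cdkn2a, Cdkn2b, Rb1, Hmgb1 and Lmnb1. They were picked by symbol as regulators and markers of cellular senescence, make up 10 of the 53735 genes in the count tables, and all 10 passed the filter on low counts that left 14418 genes for testing.

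The sequenced mRNA came from 8 BMDM libraries in 2 genotypes. WT mice were Mkl1+/+, Apoe-/- and gave 4 libraries, and the other 4 were of KO mice, which were Mkl1-/-, Apoe-/-. Both genotypes lacked Apoe, so no library came from a mouse with apolipoprotein E, and the knockout of Mkl1, which encodes a coactivator of serum response factor (SRF), was global rather than restricted to macrophages. The study describes its infused animals as age-matched males of 6 months on a C57BL/6J background. Every mouse received angiotensin II (Ang II), a pressor peptide that induces aortic aneurysm in mice without Apoe, at 1.44 mg/kg/day by osmotic minipump for 7 days, and marrow cells were then differentiated in culture for 7 days. The libraries came from 2 experiments. Experiment 1 held WT libraries 1 and 2 and KO libraries 5 and 6, and experiment 2 held WT libraries 3 and 4 and KO libraries 7 and 8. No saline-infused group was analysed here, so the effect of Ang II itself could not be measured. Nothing in the labels says that the libraries of a group came from separate mice, and p-values therefore measure the spread between these libraries, which may be technical.

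p53, encoded by Trp53, is a transcription factor that cells stabilize when DNA is damaged or growth signals are abnormal. It induces Cdkn1a, whose product p21 blocks cyclin-dependent kinases, and Mdm2, whose product tags p53 for degradation and so closes a feedback loop. The retinoblastoma protein, encoded by Rb1, holds E2F factors inactive until those kinases phosphorylate it, and the Ink4 inhibitors p16 and p15 of the Cdkn2a and Cdkn2b genes keep it in that state. Senescent cells leave the cell cycle through these routes, commonly lose lamin B1, release Hmgb1 from the nucleus and secrete inflammatory factors. The study asked whether MKL1 promotes senescence in the aortic wall during Ang II infusion, and the macrophage libraries allow the same genes to be read in another cell type of the lesion.

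The DNA upstream of these genes is shown first, because it separates the members that carry a match to the p53 consensus close to their start from those that do not. RefSeq promoters on GRCm38.p6 were found for 8 members, 11 promoters in all, and the windows run from 250 to 41 bases before the start, 210 bases each, written 5′ to 3′ on the gene's strand. Capitals mark matches to the p53 half-site, the palindromic consensus that p53 dimers bind, in the first 4 windows, and to an E2F motif (TTTCCCGC or TTTGGCGC) in the last. Both strands were searched.
Cdkn1a, upstream start, chr17:29090729-29090938, plus strand: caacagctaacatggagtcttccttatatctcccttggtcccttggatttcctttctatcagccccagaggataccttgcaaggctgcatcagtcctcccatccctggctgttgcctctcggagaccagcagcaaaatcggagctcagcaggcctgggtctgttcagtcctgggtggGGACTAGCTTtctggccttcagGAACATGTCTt
Mdm2, chr10:117710799-117711008, minus strand: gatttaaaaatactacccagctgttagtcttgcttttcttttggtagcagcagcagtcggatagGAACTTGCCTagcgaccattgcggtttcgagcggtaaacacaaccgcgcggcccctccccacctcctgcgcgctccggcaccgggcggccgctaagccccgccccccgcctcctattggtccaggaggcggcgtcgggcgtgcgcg
Ccng1, chr11:40755327-40755536, minus strand: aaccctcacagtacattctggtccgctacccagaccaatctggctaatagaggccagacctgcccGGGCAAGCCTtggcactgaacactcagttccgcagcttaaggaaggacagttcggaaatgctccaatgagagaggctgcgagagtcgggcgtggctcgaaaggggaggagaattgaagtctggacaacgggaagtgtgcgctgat
Trp53, chr11:69580109-69580318, plus strand: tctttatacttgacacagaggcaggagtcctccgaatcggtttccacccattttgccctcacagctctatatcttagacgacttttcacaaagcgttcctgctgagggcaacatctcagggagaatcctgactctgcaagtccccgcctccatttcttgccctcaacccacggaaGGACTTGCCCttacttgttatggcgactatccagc
Cdkn2a, upstream start, chr4:89294660-89294869, minus strand: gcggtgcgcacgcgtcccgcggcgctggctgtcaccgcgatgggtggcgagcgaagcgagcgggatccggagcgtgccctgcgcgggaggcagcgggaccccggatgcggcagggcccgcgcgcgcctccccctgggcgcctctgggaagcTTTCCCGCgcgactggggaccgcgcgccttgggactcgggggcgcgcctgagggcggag
A half-site was found in 4 of the 11 member promoters, against 1986 of 32851 promoters of the same length (6.05%) and 5 of 29 promoters of the list of other p53 targets used below (17.2%). Counted from the start, the matches began at position -186 in Mdm2, -185 in Ccng1 and -75 in Trp53. The upstream promoter of Cdkn1a held a pair, at -73 and -51, and such a pair of half-sites within 13 bases of each other occurred in only 19 of the 32851 promoters (0.0578%). An E2F motif was found in the upstream Cdkn2a promoter, at -99, and in 1.05% of all promoters. The CArG box, the element bound by SRF, was in none of the 11 windows and in 1.24% of all promoters. The promoters of Cdkn1b at chr6:134920401-134925513, Cdkn2b at chr4:89306299-89311039 and Hmgb1 at chr5:149046702-149184489 held no match and are not printed. No promoter was found for Rb1, at chr14:73183673-73325822, or for Lmnb1, so neither was searched. These gene positions are from GENCODE M21 on GRCm38. Each match is a description of letters in a short window, and a window without a match says nothing of sites elsewhere in the gene.

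Checks of the libraries bear on all members. Each library held between 33977799 and 41584540 counts. Mkl1 itself was lower in KO than in WT in both experiments, by 0.39 (standard error 0.08, adjusted p = 0.00381) and 1.17 (standard error 0.19, adjusted p = 0.0218) on the log2 scale in edgeR's quasi-likelihood test, with reads left in every KO library. The 9 macrophage markers summed to 15235 to 36019 CPM, of which Lyz2 was the largest part in every library, while F13a1 was at 0 to 5.14 CPM. In KO of experiment 1 their sum was 18330 to 20229 CPM against 26522 to 36019 CPM in WT, with 3 markers lower and 5 higher. Adgre1, which encodes F4/80, went from 8328 and 7102 to 1929 and 1669 CPM there, and Csf1r, the receptor of the macrophage growth factor, from 1561 and 1232 to 2538 and 2440 CPM. Both turned the other way in experiment 2, where Adgre1 went from 2678 and 2720 to 4874 and 5264 CPM and Csf1r from 2448 and 2225 to 1176 and 751 CPM. Of the 9 macrophage markers, 3 were called in both experiments, each in opposite directions. Markers of fibroblasts stood out in KO of experiment 1. All 7 that were tested of 9 listed rose there, and their sum was 178 to 235 CPM against 2.18 to 12.1 CPM in the other 6 libraries, with Lum and Thy1 at or near 0 in every library. Col1a2, a collagen chain, made up the largest share. The summed smooth muscle markers were 18.2 to 23.3 CPM in the same KO libraries and 2.09 to 9.40 CPM in the others. In experiment 2 they were lower in KO, with 2.09 to 2.32 CPM against 7.37 to 9.40 CPM in WT, and both markers that were tested fell. Erythroid markers were at 0, neutrophil, dendritic cell and lymphocyte markers each summed to at most 1.62 CPM, and progenitor markers to 1.55 to 14.0 CPM. The progenitor sum was 10.1 to 14.0 CPM in WT and 2.49 to 4.61 CPM in KO of experiment 2, where neither marker passed the test. The part these marker shifts have in the results of either experiment was not tested, and in bulk RNA fewer cells of a type cannot be told apart from less RNA per cell.
The groups also did not pair by genotype across experiments. The mean levels of WT in experiment 1 and KO in experiment 2 differed by over 2-fold for 395 genes, whereas the other 5 pairs of groups differed in this way for 1781 to 2550 genes. Over the 10 members the root mean square of the log2 difference was 0.33 for that pair and between 0.52 and 0.89 for the other pairs. Comparisons were therefore made within each experiment first.

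Per kilobase of exon, the members spanned a wide range of levels. Ccng1 was the most abundant, with a median of 102 CPM per kb over the 8 libraries, which exceeds 97.0% of the 11786 genes with a known length. Mdm2 followed at 70.3, Cdkn1a at 44.3 and Hmgb1 at 23.0 CPM per kb. Rb1, Cdkn1b, Trp53 and Lmnb1 lay close together, at 11.8, 11.7, 11.1 and 8.25 CPM per kb. The Ink4 genes were far lower, with 0.93 CPM per kb for Cdkn2b and 0.54 for Cdkn2a, the latter higher than only 13.3% of genes. Among neighbors in this order, the ranges over libraries were separate only between Hmgb1 and Rb1 and between Lmnb1 and Cdkn2b. Thus the p53-induced members, Ccng1, Mdm2 and Cdkn1a, stood above the gene for p53 itself. Within each of the 8 libraries Ccng1 exceeded Mdm2 and Mdm2 exceeded Cdkn1a per kb, and over libraries the ranges of Ccng1 (90.0 to 145) and Cdkn1a (25.5 to 62.2) were separate.

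**Figure D1:**
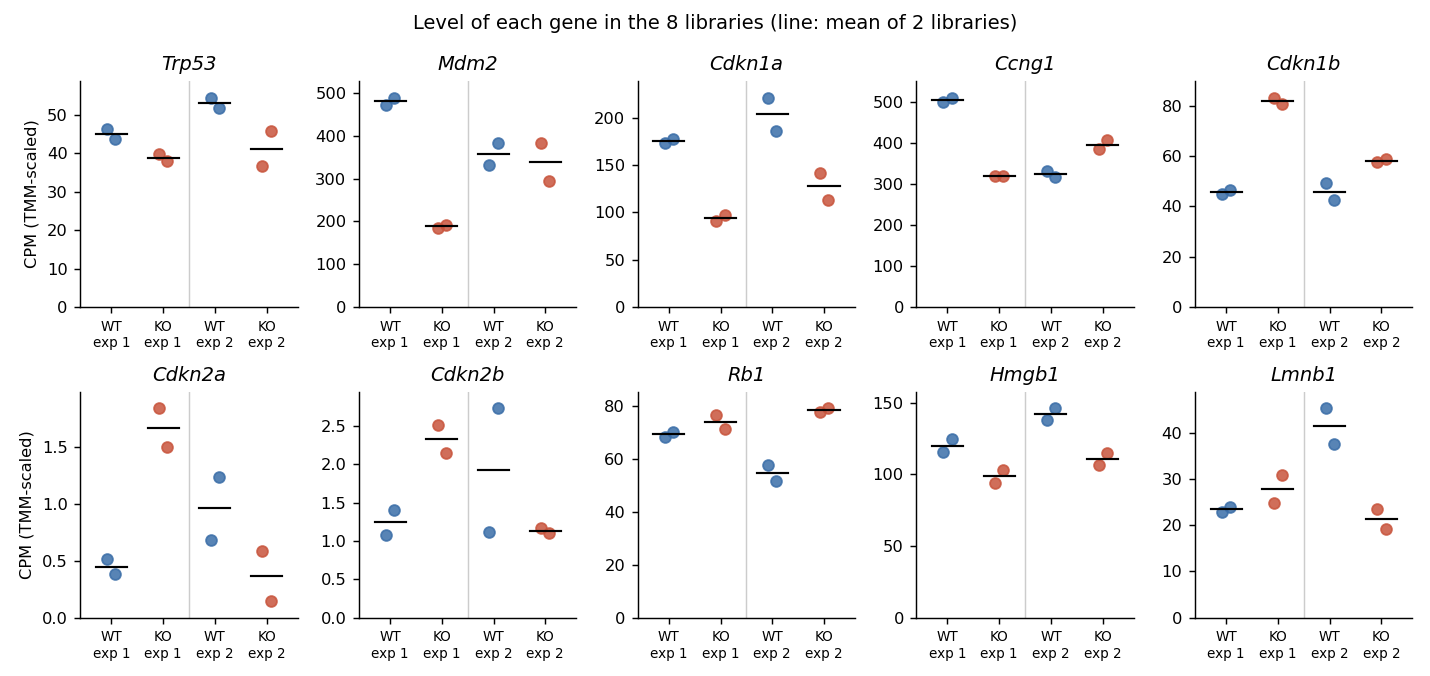
Level of each member in CPM (vertical axis, TMM-scaled, from 0) in the 2 libraries of each genotype and experiment (WT blue, KO red). Lines are means of 2 libraries. Cdkn1a and Hmgb1 were lower and Cdkn1b and Rb1 higher in every KO library than in every WT library, while Mdm2, Ccng1, Cdkn2a, Cdkn2b and Lmnb1 did not keep one order in both experiments.

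In experiment 1, 8 of the 10 members passed the test, 5 lower and 3 higher in KO, in a comparison in which 55.1% of all genes tested passed (28.1% lower and 27.0% higher). The median log2 fold change of the members was -0.07, beside 0.01 for all genes. In experiment 2, only Lmnb1 (lower) and Rb1 (higher) passed, and 15.8% of all genes did (8.29% lower, 7.52% higher). The median there was -0.36 (-0.15 without WT 4), beside 0.01 for all genes. No member passed in both experiments, where 4.38% of all genes passed in the same direction and 6.34% in opposite directions. The KO effect differed between the experiments for 7 members in the interaction test, against 41.6% of all genes. Over both experiments together Cdkn1a and Hmgb1 were called lower and Cdkn1b higher, against 7.12% of all genes called (3.41% lower and 3.72% higher). These counts depended on single libraries and on the fit. With all 8 libraries in the fit, 4 members were called lower and 3 higher in experiment 2. There, no member was called without WT 3, KO 7 or KO 8, and 1 was called without WT 4. Over both experiments no member was called without WT 1, without KO 5 or without the experiment term, and 1 was called without WT 2, WT 4, KO 6 or KO 7. The interaction was called for 4 members without WT 1, 3 without WT 2 and 4 without KO 5.

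**Figure D2:**
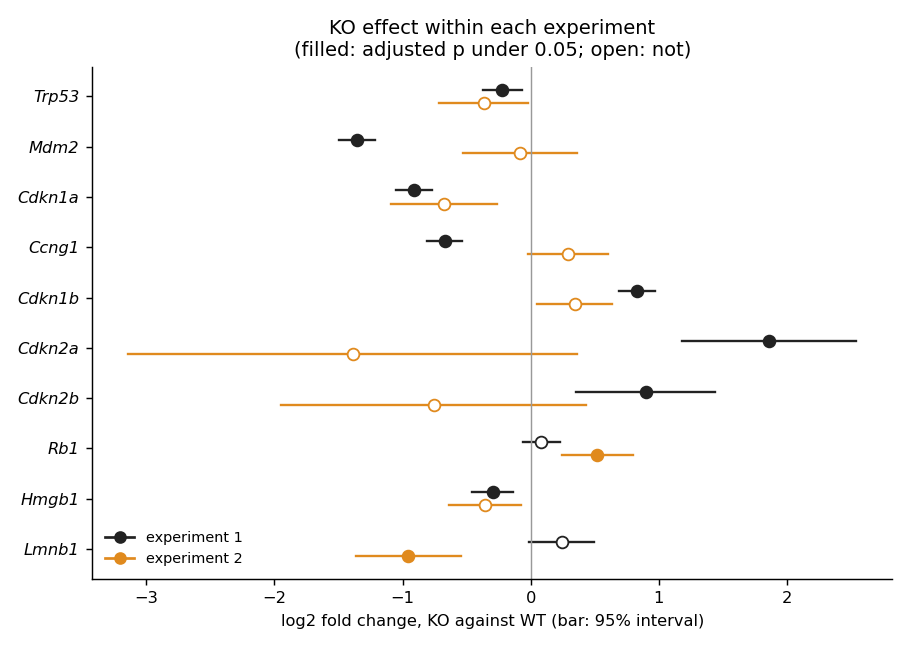
Log2 fold change of KO against WT (horizontal axis) with its 95% interval for each member in experiment 1 (black) and experiment 2 (orange), filled where the adjusted p was under 0.05. The intervals of the experiments were apart for Mdm2, Ccng1, Cdkn1b, Cdkn2a, Rb1 and Lmnb1. Both lay on the same side of 0 for Trp53, Cdkn1a, Cdkn1b and Hmgb1.

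Trp53, which encodes p53, was modestly lower in KO. It had 46.3 and 43.8 CPM in WT and 39.8 and 38.0 CPM in KO of experiment 1, and 54.5 and 51.9 CPM in WT and 36.7 and 45.8 CPM in KO of experiment 2. KO libraries lay below WT libraries within each experiment, with the genotypes overlapping only between KO 8 and WT 2. Its log2 fold change was -0.22 in experiment 1 (standard error 0.07, adjusted p = 0.0215 in edgeR's quasi-likelihood test) and -0.37 in experiment 2 (standard error 0.14, adjusted p = 0.133). The call in experiment 1 was lost in DESeq2 (adjusted p = 0.0519), under upper-quartile scaling (0.154), in a fit of all 8 libraries (0.164), without WT 1 (0.151) and without KO 6 (0.0811). In experiment 2 the value passed only in the fit of all 8 libraries (adjusted p = 0.0383). Over both experiments it did not pass (log2 fold change -0.29, adjusted p = 0.105), except in DESeq2 (0.0372). The effects in the experiments did not pass the interaction test (adjusted p = 0.450), and the 95% interval of their difference ran from -0.52 to 0.21.

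Mdm2, the ubiquitin ligase that degrades p53, showed the largest decrease of any member in experiment 1. It had 471 and 489 CPM in WT and 186 and 192 CPM in KO, so that KO held 0.39 of the WT level. In experiment 2 the values were 332 and 384 CPM in WT and 382 and 295 CPM in KO, and the genotypes overlapped. The log2 fold change was -1.36 in experiment 1 (standard error 0.06, adjusted p = 2.29e-06 in edgeR's quasi-likelihood test) and -0.08 in experiment 2 (standard error 0.18, adjusted p = 0.779), with a 95% interval of -0.53 to 0.36 in the latter. The direction in experiment 2 turned without WT 4 (0.03) and without KO 8 (0.10). The difference between the experiments was 1.26 (standard error 0.19, adjusted p = 0.00227).
Ccng1, a cyclin G that p53 induces and that acts with Mdm2, fell in experiment 1, as Mdm2 did. It had 499 and 510 CPM in WT and 319 and 320 CPM in KO of experiment 1. It had 331 and 316 CPM in WT and 385 and 406 CPM in KO of experiment 2, where both KO libraries were the higher ones. On the log2 scale the fold change was -0.67 (standard error 0.06, adjusted p = 4.57e-05 in edgeR's quasi-likelihood test) in experiment 1 and 0.29 (standard error 0.12, adjusted p = 0.168) in experiment 2. The latter was called higher in the fit of all 8 libraries (0.0289). The difference between the experiments, 0.95, had the smallest adjusted p among the members (0.000964).

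Cdkn1a, which encodes p21, was lower in KO throughout. It had 173 and 178 CPM in WT and 90.5 and 97.5 CPM in KO of experiment 1, and 221 and 186 CPM in WT and 142 and 113 CPM in KO of experiment 2. No KO library reached the lowest WT library (exact permutation test, two-sided, p = 0.0286, the smallest that 70 arrangements allow). The exact permutation test within experiments gave p = 0.0556, the smallest of 36 arrangements. All 10 members were compared in this way, and these p-values are not adjusted for their number. Any member whose genotypes do not overlap has these same p-values, so they add nothing to the separation. Trp53, whose genotypes overlapped, also had 0.0556 within experiments. The level in KO was 0.53 of WT in experiment 1 (log2 fold change -0.91, standard error 0.06, adjusted p = 1.26e-05 in edgeR's quasi-likelihood test) and 0.63 of WT in experiment 2 (log2 fold change -0.68, standard error 0.17, adjusted p = 0.0506). In experiment 2 it thus missed the threshold, and it passed in DESeq2 (0.00468), with no filter (0.00763), with a filter by experiment and genotype (0.0484), in limma-voom (0.0496) and in the fit of all 8 libraries (0.00679). Over both experiments the log2 fold change was -0.79 (standard error 0.11, adjusted p = 0.0110), which was lost without WT 1 (0.0519), without KO 5 (0.0508) and without the experiment term (0.143). No difference between the experiments was detected (adjusted p = 0.354, 95% interval -0.20 to 0.65).

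Cdkn1b encodes p27, the p21-related inhibitor that is controlled largely by protein turnover, and it moved in the opposite direction to Cdkn1a. It had 44.9 and 46.5 CPM in WT and 83.1 and 80.7 CPM in KO of experiment 1, and 49.2 and 42.5 CPM in WT and 57.5 and 58.8 CPM in KO of experiment 2. No KO library overlapped a WT library (exact permutation test, two-sided, p = 0.0286 over all libraries and 0.0556 within experiments). The effect on the log2 scale was 0.83 in experiment 1 (standard error 0.06, adjusted p = 1.74e-05 in edgeR's quasi-likelihood test), 0.34 in experiment 2 (standard error 0.12, adjusted p = 0.106) and 0.59 over both (adjusted p = 0.0308). The value in experiment 2 passed in the fit of all 8 libraries (0.0207). The effect was smaller in experiment 2 by 0.50 (adjusted p = 0.0156), a call lost without WT 1 (0.0807), WT 2 (0.0511) or KO 5 (0.0735). The call over both experiments was lost without the experiment term (0.148) and in 6 of the 8 fits that left out 1 library, those without WT 1, WT 2, WT 4, KO 5, KO 6 and KO 7 (adjusted p between 0.0573 and 0.0991).

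The Ink4 genes had few counts in every library. Cdkn2a, whose alternative first exons encode p16 and p19Arf, had 21 and 13 counts in WT and 68 and 60 counts in KO of experiment 1. In experiment 2 it had 25 and 43 counts in WT and 24 and 6 counts in KO. These counts correspond to 0.52, 0.38, 1.84 and 1.5 CPM, and to 0.69, 1.24, 0.59 and 0.14 CPM. KO was thus higher in experiment 1 and lower in experiment 2, where KO 7 and WT 3 were close. The log2 fold change was 1.86 in experiment 1 (standard error 0.29, adjusted p = 0.000993 in edgeR's quasi-likelihood test) and -1.39 in experiment 2 (standard error 0.69, adjusted p = 0.223). The difference of -3.27 passed the interaction test (adjusted p = 0.0143), but not without WT 2 (0.0601) or KO 5 (0.0511). Counts per gene cannot assign these reads to p16 or p19Arf.
Cdkn2b, which encodes p15, lies next to Cdkn2a and had the same pattern of means. It had 44 and 48 counts in WT and 93 and 86 counts in KO of experiment 1, and 41 and 95 counts in WT and 48 and 46 counts in KO of experiment 2. WT 4 held about as many counts as the KO libraries of experiment 1, whereas WT 3 resembled the remaining libraries. The log2 fold change was 0.90 in experiment 1 (standard error 0.23, adjusted p = 0.0121 in edgeR's quasi-likelihood test) and -0.76 in experiment 2 (standard error 0.47, adjusted p = 0.316). The first was lost in DESeq2 (0.0530), in the fit of all 8 libraries (0.105), without WT 1 (0.0713) and without KO 5 (0.0626), and the second turned to 0.02 without WT 4. The difference of -1.66 (adjusted p = 0.0493) was lost in 10 of the 13 alternative fits, including each without WT 1, WT 2, WT 4, KO 5, KO 6, KO 7 or KO 8. Its size shrank to -0.89 without WT 4. The Ink4 genes rose in experiment 1 in the KO libraries that also held the fibroblast markers, and the part of those markers was not tested.

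Rb1, the E2F-binding pocket protein, was slightly higher in KO. It had 68.2 and 70.4 CPM in WT and 76.7 and 71.3 CPM in KO of experiment 1, and 57.9 and 51.7 CPM in WT and 77.9 and 79.1 CPM in KO of experiment 2. The genotypes did not overlap (exact permutation test, two-sided, p = 0.0286 over all libraries and 0.0556 within experiments), although KO 6 and WT 2 were nearly level. The log2 effect was 0.08 in experiment 1 (standard error 0.06, adjusted p = 0.295 in edgeR's quasi-likelihood test) and 0.52 in experiment 2 (standard error 0.11, adjusted p = 0.0366). The latter call did not pass when any single library of experiment 2 was left out (adjusted p of 0.0956 without WT 3, 0.153 without WT 4, 0.0949 without KO 7 and 0.126 without KO 8). The interaction (0.42, adjusted p = 0.0239) was lost without WT 1 (0.0570), WT 2 (0.0896), WT 4 (0.0512) or KO 6 (0.0942). Rb1 overlaps Rcbtb2 and Lpar6 on the opposite strand, and the strand setting of the counting is not given in the sources used here.

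Hmgb1, a nuclear DNA-bending protein that senescent cells release, was lower in KO by a similar amount in both experiments. It had 116 and 124 CPM in WT and 94.0 and 103 CPM in KO of experiment 1, and 138 and 146 CPM in WT and 106 and 115 CPM in KO of experiment 2. All KO libraries were below all WT libraries (exact permutation test, two-sided, p = 0.0286 over all libraries and 0.0556 within experiments), with KO 8 and WT 1 almost equal. The log2 fold change was -0.30 in experiment 1 (standard error 0.07, adjusted p = 0.00680 in edgeR's quasi-likelihood test), -0.36 in experiment 2 (standard error 0.11, adjusted p = 0.0894) and -0.32 over both (standard error 0.07, adjusted p = 0.0458). The value in experiment 2 passed in the fit of all 8 libraries (0.0174). The call over both experiments was lost in all 8 fits that left out 1 library (adjusted p between 0.0593 without KO 8 and 0.158 without KO 5), under upper-quartile scaling (0.0951) and without a filter (0.100). Its transcript level says nothing of where the protein is. Hmgb1 has 11 pseudogenes or near copies in the tables, with 2344 counts in all beside 35813 for Hmgb1, and reads may have been split among them. It also overlaps Uspl1 on the opposite strand.
Lmnb1 encodes lamin B1, a protein of the nuclear lamina whose loss is a common marker of senescence. It had 22.8 and 24.0 CPM in WT and 24.9 and 30.8 CPM in KO of experiment 1, and 45.2 and 37.5 CPM in WT and 23.6 and 19.1 CPM in KO of experiment 2. WT of experiment 2 stood apart from the other 6 libraries, which lay between 19.1 and 30.8 CPM. Lmnb1 had a log2 fold change of 0.24 in experiment 1 (standard error 0.11, adjusted p = 0.0974 in edgeR's quasi-likelihood test) and -0.96 in experiment 2 (standard error 0.16, adjusted p = 0.0235), and the difference of -1.21 passed the interaction test (adjusted p = 0.00428). The call in experiment 2 was lost without WT 3 (0.0728), KO 7 (0.0526) or KO 8 (0.0994), while in experiment 1 it rose past the threshold without KO 5 (log2 fold change 0.39, adjusted p = 0.00597).
Upper-quartile scaling shifted the median log2 fold change of all genes by 0.10 in experiment 1 and lowered the share of calls that were decreases from 51.0% to 40.2%. With it Rb1 (0.18, adjusted p = 0.0415) and Lmnb1 (0.34, adjusted p = 0.0265) were called higher in experiment 1 by edgeR's quasi-likelihood test, and Trp53 was not called. The directions of the other members' calls in experiment 1 were the same under it, and the members' median there was 0.03. Over all 8 libraries, Cdkn1a, Cdkn1b, Rb1 and Hmgb1 were the 4 of 10 members whose genotypes did not overlap, where 12.7% of all genes tested were so separated.

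The members were then set beside other genes of their pathways, using 7 lists of textbook genes. Their counts stand against the shares of all genes given above for each experiment and direction, and against medians of 0.01 in both. Upper-quartile scaling raises the medians of experiment 1 below by the shift of 0.10 given above. Of 30 p53 target genes other than the members, 29 were tested. In experiment 1, 15 were lower and 6 higher in KO, with a median log2 fold change of -0.24 (72.4% called, against 55.1% of all genes). A fit of all 8 libraries left 12 lower and 3 higher there. Plk2, a stress-induced kinase, fell from 485 and 464 to 198 and 184 CPM (log2 fold change -1.33), and Gadd45a, a growth arrest gene, fell from 32.6 and 30.7 to 9.22 and 10.1 CPM (-1.72). Ephx1, an epoxide hydrolase, rose from 24.1 and 21.4 to 82.3 and 70.9 CPM (1.74). In experiment 2, 2 were lower and 7 higher, with a median of 0.11 (31.0% called, against 15.8%). Gadd45a there was higher in KO (20.1 and 23.5 against 31.4 and 42.5 CPM, log2 fold change 0.76, adjusted p = 0.0489), and Plk2 had 315 and 437 CPM in WT and 485 and 400 CPM in KO (0.24, adjusted p = 0.468).
Of the 29 p53 targets, 6 were called in both experiments, 2 lower in both, 1 higher in both and 3 lower then higher, where 4.38% of all genes were called in the same direction and 6.34% in opposite directions. The death receptor Fas fell in both, from 42 and 29.6 to 8.95 and 8.22 CPM and from 65.7 and 53.6 to 16 and 16.6 CPM (log2 fold changes -2.07 and -1.87). The proapoptotic Pmaip1 (Noxa) fell from 51.9 and 48.7 to 24.8 and 24.0 CPM and from 47.4 and 51.1 to 28.8 and 26.4 CPM (-1.06 and -0.84). Trp53inp1, a p53-induced nuclear protein, rose in both (0.41 and 1.04). The interaction passed for 16 of the 29, of which 14 had the larger value in experiment 2 and 2 the smaller, against 21% and 20.6% of all genes. Mdm2, Ccng1, Plk2 and Gadd45a, which fell in experiment 1, each had a different effect in experiment 2 by this test, and for Fas and Pmaip1, as for Cdkn1a, no difference was detected (adjusted p of 0.560 and 0.195). In experiment 2 the 9 calls fell to 4 without WT 3, WT 4 or KO 7 and to 1 without KO 8.

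**Figure D3:**
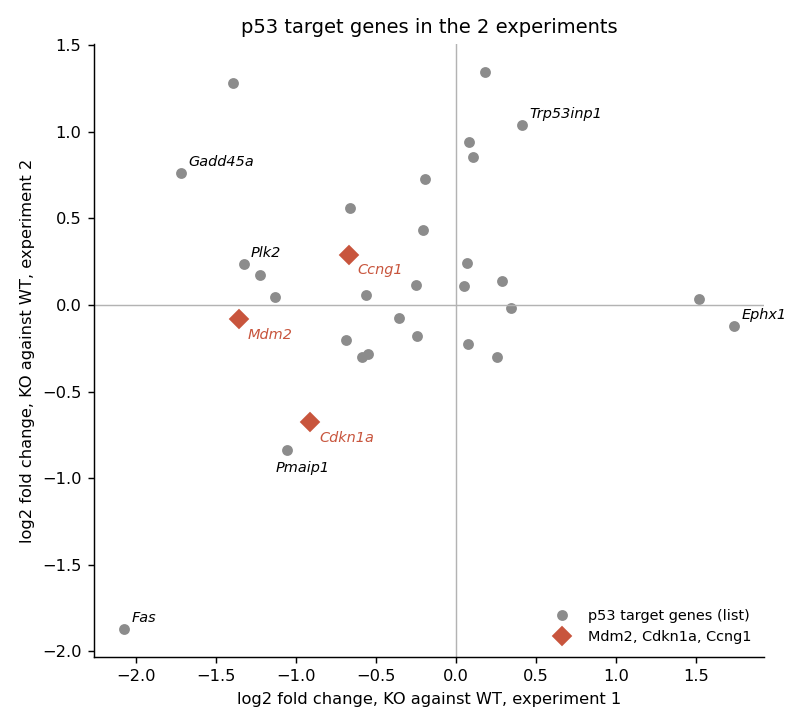
Log2 fold change of KO against WT in experiment 1 (horizontal) and experiment 2 (vertical) for 29 p53 target genes (grey) and for Mdm2, Cdkn1a and Ccng1 (red diamonds). Cdkn1a, Pmaip1 and Fas lie left of and below 0, while Plk2, Gadd45a and Ccng1 lie left of and above 0.

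Among 23 tested regulators of p53 (25 listed), 8 were lower and 4 higher in experiment 1 (6 lower and 7 higher under upper-quartile scaling), and 2 lower and 3 higher in experiment 2. The medians were -0.02 in experiment 1 (-0.05 without WT 2, -0.01 without WT 1 and 0.0002 without KO 6) and 0.09 in experiment 2 (0.20 without WT 3 and 0.21 without KO 7). The DNA damage kinase Atr fell from 60.7 and 56.9 to 33.5 and 34.9 CPM in experiment 1 (log2 fold change -0.79). Rfwd2, the ubiquitin ligase Cop1 that acts on p53, was lower in both experiments (-0.89 and -0.56, adjusted p = 0.000110 and 0.0472). Npm1, a nucleolar protein that binds Mdm2, was lower in experiment 1 (-0.66), and had a value of 0.37 in experiment 2 that did not pass. The kinase Chek2 (0.76) and Trp53bp2 (0.65) rose in experiment 2. Daxx, a partner of Mdm2, stood at 257 and 145 CPM in WT of experiment 2, while the remaining 6 libraries spanned 44.8 to 66.3 CPM. In experiment 2 the 5 calls fell to 1 without WT 3, 2 without WT 4 and 0 without KO 7 or KO 8, and became 3 lower and 8 higher with all 8 libraries in the fit.

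The cell cycle genes downstream of p21 and Rb1 did not each keep one direction in the experiments. Of 26 E2F-driven and proliferation genes, 12 were lower and 7 higher in KO of experiment 1 (median -0.29, or -0.15 without KO 5 and -0.45 without KO 6), and 15 were lower and none higher in experiment 2 (median -0.91, 57.7% called). Of the 9 called in both experiments, 2 were lower in both and 7 were higher, then lower. Over both experiments together the log2 fold changes of all 26 lay below 0, between -0.90 and -0.17 (median -0.43). In that fit 2 were called, both lower (7.69%, against 7.12% of all genes), with 7 in DESeq2 and 0 without the experiment term. The mitotic kinase Plk1 had 18.9 and 19.0 CPM in WT and 30.5 and 36.7 CPM in KO of experiment 1, and 63.1 and 51.0 CPM in WT and 21.7 and 15.1 CPM in KO of experiment 2 (log2 fold changes 0.81 and -1.63). The mitotic cyclin Ccnb2 followed the same order (0.77 and -1.70), as did Cdc20, an activator of the anaphase promoting complex (0.69 and -1.34), and cyclin B1 (Ccnb1) fell in experiment 2 (-1.28). Hells, a chromatin remodeler of replicating cells, fell in experiment 1 (-1.37) and had 0.21 in experiment 2. The summed level of the list was 4388 to 4561 CPM in WT of experiment 2, 3090 to 3120 CPM in WT of experiment 1 and 2218 to 2928 CPM in the 4 KO libraries. The WT libraries of experiment 2, highest for this list, were those highest for Lmnb1 and for the progenitor markers. The smooth muscle markers fell in the same comparison, and the part of either marker list was not tested. The 15 calls in experiment 2 fell to 5 without WT 3, 6 without WT 4, 14 without KO 7 and 1 without KO 8, and a fit of all 8 libraries left 11 lower and 4 higher in experiment 1.
Of 27 other inhibitors, cyclins, kinases, E2F factors and pocket proteins, 15 were lower and 6 higher in experiment 1 (median -0.29, or -0.15 without KO 5), and 3 were lower and none higher in experiment 2. The median in experiment 2 was 0.04, and lay between -0.06 without KO 7 and 0.12 without WT 4, below 0 also without WT 3 (-0.01). In experiment 1 Ccng2, a relative of Ccng1, rose from 23.9 and 23.4 to 61.8 and 58.0 CPM (log2 fold change 1.33), opposite to Ccng1. Cyclin E1 (Ccne1, -1.59) and E2f3 (-0.84) fell. In experiment 2 the inhibitor Cdkn2c (p18, -1.03), the phosphatase Cdkn3 (-1.96) and Cks1b (-0.80), a kinase subunit, fell. Cdkn2c (0.54) and Cdkn3 (0.78) were higher in KO of experiment 1. The 3 calls in experiment 2 fell to 0 without WT 3 or KO 8 and rose to 4 lower and 2 higher in DESeq2 and 4 lower and 4 higher with all 8 libraries, and a fit of all 8 libraries left 9 lower and 3 higher in experiment 1.

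Of 16 genes that control the Ink4 locus, 9 were lower and 4 higher in experiment 1 (median -0.41), and 2 were lower and 4 higher in experiment 2 (median 0.21, or 0.14 without KO 8). Bmi1, the Polycomb protein that represses Cdkn2a, had 75.0 and 73.9 CPM in WT and 33.3 and 33.3 CPM in KO of experiment 1 (log2 fold change -1.17), where Cdkn2a was higher. In experiment 2 it had 51.0 and 45.5 CPM in WT and 61.6 and 87.5 CPM in KO (0.63, adjusted p = 0.0858), and Cdkn2a had a value below 0. The difference of the Bmi1 effect between the experiments was 1.79 (adjusted p = 0.00102 in edgeR's quasi-likelihood test). Cdkn2a had few counts and was not called in experiment 2, and whether its level is linked to that of Bmi1 was not tested. Junb fell in both experiments (-0.72 and -1.29). Foxo3 (0.67 and 0.91), Kdm2b (0.77 and 0.48) and the Polycomb subunit Cbx8 (1.24 and 1.62) rose in both. The 6 calls in experiment 2 fell to 2 without WT 3, 3 without WT 4 or KO 7 and 0 without KO 8.
Of 14 genes of the nuclear lamina and the HMGB family, 4 were lower and 3 higher in experiment 1, and 5 were lower and none higher in experiment 2. Lmnb2 had 62.8 and 77.3 CPM in WT of experiment 2 and 26.2 to 41.3 CPM in the other 6 libraries, an order like that of Lmnb1, with a log2 fold change of -1.19 in experiment 2. Hmgb2, the paralog of Hmgb1, had 62.7 and 54.1 CPM in WT of experiment 2 and 24.8 to 31.5 CPM elsewhere (-1.19). The lamin B receptor Lbr was higher in experiment 1 (0.60) and lower in experiment 2 (-0.82), and Sun2 fell in experiment 2 (-0.68). Lmna, which encodes lamins A and C, fell in experiment 1 (-0.52) and had -0.14 in experiment 2, and the chromatin protein Hmga2 rose in experiment 1 (0.72). The 5 calls in experiment 2 fell to 2 without WT 3 or KO 7 and 0 without KO 8, and became 7 lower and 1 higher with all 8 libraries in the fit.
Of the secreted and surface factors of the senescence program, 20 of 24 listed were tested. Of these, 9 were lower and 6 higher in experiment 1 (10 lower and 3 higher without KO 6), and 7 were lower and 2 higher in experiment 2 (5 lower and 4 higher without a filter). Of the 8 called in both, 6 were lower in both, Vegfa was higher in both (log2 fold changes 0.30 and 0.95), and Hgf was lower, then higher (-0.37 and 1.90). Cxcl2, a neutrophil chemokine, fell from 156 and 122 to 1.92 and 2.62 CPM and from 547 and 632 to 25.0 and 24.7 CPM. Icam1, a leukocyte adhesion molecule, had 184 and 167 against 86.8 and 96.3 CPM, and 1077 and 1073 against 85.3 and 79.7 CPM. The cytokine Il1b had log2 fold changes of -3.63 and -7.13 and the chemokine Cxcl1 -3.53 (adjusted p = 0.0558) and -5.81. All of these are also general products of inflammatory signaling. The list held large rises too. Its log2 fold changes ran from -5.94 to 4.24 in experiment 1 (median -0.25, or -0.16 without KO 5). In experiment 2 they ran from -7.13 to 3.36 (median -0.63, or -1.42 without KO 7 and -0.40 without KO 8). The 9 calls in experiment 2 fell to 5 without KO 7 and 4 without KO 8.

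**Figure D4:**
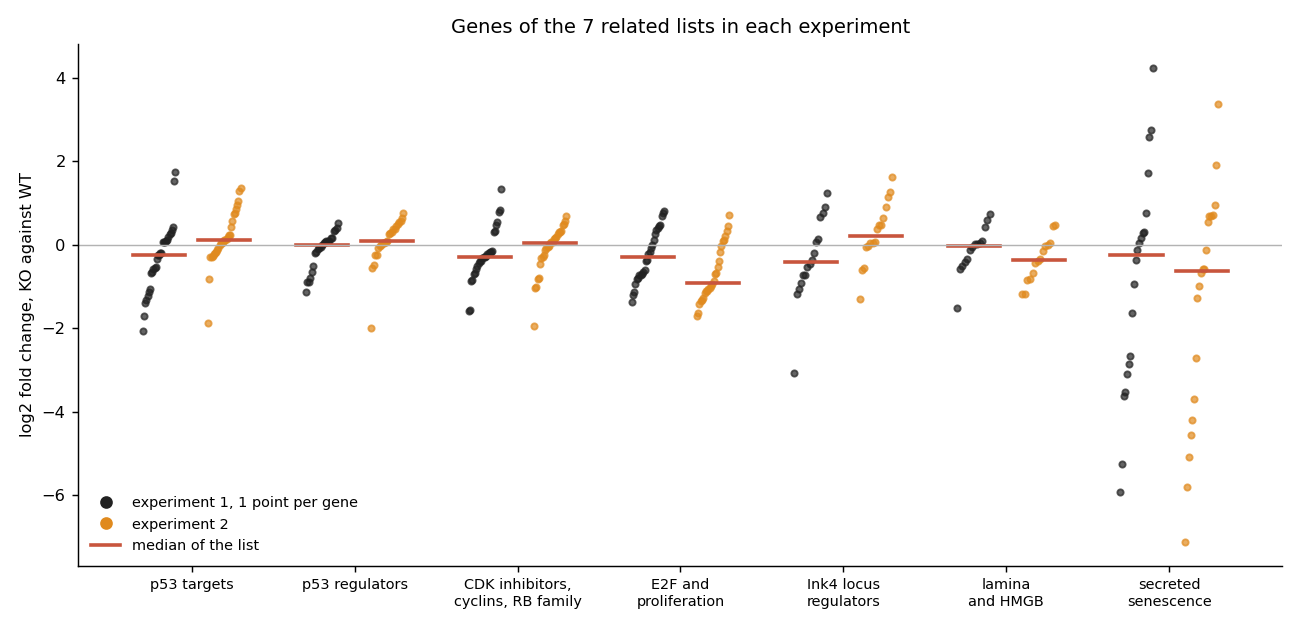
Log2 fold change of KO against WT (vertical axis) of every tested gene of the 7 lists in experiment 1 (black) and experiment 2 (orange), sorted within each list, with the median in red. The E2F and proliferation genes had medians of -0.29 (-0.15 without KO 5 and -0.45 without KO 6) and -0.91, and the p53 targets -0.24 and 0.11.

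Across the 8 libraries, which share experiment and genotype, the levels of several members ran together or apart. The Pearson correlation of log2 CPM was -0.92 for Cdkn1a with Cdkn1b, -0.92 for Mdm2 with Cdkn1b and 0.81 for Mdm2 with Cdkn1a. It was 0.87 for Trp53 with Hmgb1, 0.87 for Cdkn1a with Hmgb1, 0.80 for Cdkn2a with Cdkn2b and -0.83 for Rb1 with Lmnb1. Trp53 and its targets did not run together as one group, with 0.73 for Cdkn1a, 0.40 for Mdm2 and -0.02 for Ccng1. Among all genes tested, the pattern of Cdkn1a was most like that of Slc25a10 (0.99), a mitochondrial dicarboxylate carrier that had 75.7 to 94.4 CPM in WT and 46.0 to 62.9 CPM in KO, then RP24-91G8.4 and Rabgef1 (both 0.99). That of Trp53 was most like RP23-229N10.4, RP23-385F8.1 and Pus7l (0.98, 0.98 and 0.97). For Cdkn2a the nearest genes were Rab13, RP23-320F19.2 and RP23-89L15.6 (0.99, 0.98 and 0.98), and for Lmnb1 they were Piwil4, Ube2c and Dnajb5 (each 0.99), of which Ube2c is a mitotic ubiquitin-conjugating enzyme. By rank correlation, where many genes tie over 8 libraries, Slc25a10, RP24-91G8.4, Pus7l, Rab13, RP23-89L15.6 and Piwil4 ranked 1 for their member, each tied with other genes. The others moved down, to rank 18 for Rabgef1, 6 for RP23-229N10.4, 15 for RP23-385F8.1, 89 for RP23-320F19.2, 20 for Ube2c and 234 for Dnajb5.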

How the data were processed

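RNA-seq of 8 BMDM libraries was analyzed from the raw counts per gene that the authors deposited for each experiment. The submitters' processing notes name STAR 2.7.0f, Subread 1.6.4, featureCounts, DESeq2 1.22.1 and GRCm38. The annotation and the strand setting are not given in the sources used here, and the library kit was stranded. Deposited normalized counts were not used, since they were scaled within each experiment. Every per-sample count column was assigned by its label.

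Counts of both experiments were joined by symbol, genes were kept by filterByExpr on genotype (14418 of 53735), TMM scaling was applied, and KO and WT were compared by the robust quasi-likelihood F test of edgeR 4.0.16 in R 4.3.3 with Benjamini-Hochberg adjustment over all genes tested and a threshold of 0.05, within each experiment, over both with an experiment term, and as the interaction, which is the effect in experiment 2 minus that in experiment 1. CPM are TMM-scaled and log2 CPM used a prior count of 2. Single members were also compared by exact two-sided permutation tests over 70 arrangements, or 36 within experiments. Total depth was 33977799 to 41584540 counts, so that 1 CPM equaled 34.1 to 41.7 counts. Exon length, positions and overlaps came from GENCODE M21 on GRCm38 and promoters from RefSeq on GRCm38.p6.

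The members and lists were chosen with earlier results of these data known, so no list was tested as a set, and their calls are no independent evidence. The genes named were the members, Mkl1, the top 3 genes by p in each list and experiment, and the 3 genes most correlated with Cdkn1a, Trp53, Cdkn2a and Lmnb1. The cell type markers named singly, Vegfa and Hgf were chosen after their values were seen. Lists were p53 targets, p53 regulators, cell cycle inhibitors, cyclins and pocket proteins, E2F and proliferation genes, regulators of the Ink4 locus, lamina and HMGB genes, secreted senescence genes and cell type markers. Alternatives were DESeq2 1.42.0 with its size factors, upper-quartile scaling, limma-voom (limma 3.58.1), no filter beyond 1 count in total, a filter by experiment and genotype, all 8 libraries in the fit, no experiment term, a prior count of 0.5, Spearman correlation, and each library left out in turn. Figures were drawn with matplotlib 3.10.9.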

Additional observations from a re-analysis of the deposited data

Results flagged for a closer look

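For 7 of the 10 members the KO effect differed between the experiments by edgeR's interaction test, in which 41.6% of all genes tested passed. The effect in experiment 2 minus that in experiment 1, on the log2 scale, was 1.26 for Mdm2, 0.95 for Ccng1 and 0.42 for Rb1. It was -0.50 for Cdkn1b, -1.21 for Lmnb1, -1.66 for Cdkn2b (-0.89 without WT 4) and -3.27 for Cdkn2a. Mdm2 and Cdkn1b had the larger effect in experiment 1 and Rb1 in experiment 2, and the values of Ccng1, Lmnb1, Cdkn2a and Cdkn2b were of opposite sign in the experiments. No member had a library far from the other 3 of its genotype by Dixon's criterion.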

How the results depend on the processing

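No paired analysis was possible because the groups share no replicate numbers. Genes called in experiment 2, 2279 in all, numbered 232 to 1388 when 1 library was left out (lowest without KO 8, and 803 without WT 3 and 842 without KO 7) and 4899 with all 8 libraries in the fit. Over both experiments the 1027 calls became 2492 in DESeq2, 4 without the experiment term and 243 to 1100 without 1 library (lowest without WT 1). The 5996 interactions became 3935 to 6508 without 1 library. In experiment 1 no alternative moved the count by over 1.5 times. Upper-quartile scaling lowered the share of decreases among calls over both experiments from 47.8% to 32.7%.

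Every direction that turned belonged to a value that was past the threshold neither as reported nor after turning. In experiment 1 these were Lmnb2 (-0.0032 with no filter, -0.0849 to 0.1457 without 1 library) and Sun2 (-0.0023 in DESeq2, -0.0333 with no filter, -0.016 with a filter by experiment and genotype, -0.0177 to 0.0319 without 1 library). In experiment 2, leaving out 1 library gave -0.2815 to 0.095 for Mdm2, -1.2648 to 0.0169 for Cdkn2b, -0.7014 to 0.287 for Ephx1, -0.2122 to 0.5621 for Ccne1, -0.4515 to 0.2423 for Lmna and -0.0616 to 0.9139 for Hmga2. Over both experiments it gave -0.274 to 0.9422 for Cdkn2a and -0.1885 to 0.5475 for Cdkn2b, and for the interaction -0.3233 to 0.0315 for Trp53 and -0.1334 to 0.0205 for Hmgb1. Of the members' other alternative values, 388 kept direction and side of the threshold, 56 lost a call and 13 gained one. Depth limits Cdkn2a and Cdkn2b, with 6 to 95 counts per library. The cause of these changes was not tested.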
